A study of Mus musculus with 8 samples.

Results

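Sites at which the transcription factor Pax6 had a called peak summit after knockdown (KD) of the long non-coding RNA Paupar, but not after control KD, were described by place, gene, signal and sequence. A site was chosen by the called summits: both Paupar KD libraries had a summit within 250 bp of its middle and neither control KD library had one. This held for 2166 of the 26244 sites in the authors' deposited table (8.25%), annotated to 1828 of 10197 genes, and these are called Paupar KD-only sites. For comparison, 5247 sites had such a summit in all 4 libraries and 385 had one in both control KD libraries and in no Paupar KD library. Because the same libraries chose the sites and gave the signal, every comparison of signal between the groups at these sites is a description with no test.

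Pax6 was immunoprecipitated from alphaTC1 cells, a mouse glucagon-producing alpha-cell line derived from a pancreatic tumour of a mouse in which the glucagon promoter drove an SV40 T antigen transgene. Both groups had received antisense oligonucleotides, with a scrambled sequence in control KD and a sequence against Paupar in Paupar KD; dose and time were not given in the sources used here. Each group had 2 Pax6 libraries, said by the series' design text to be biological duplicates, and 2 input libraries, which were not analysed here. A summit list was deposited for each Pax6 library, while the table of sites, each 100 bp wide, gave 1 mean concentration per group, read here as a log2 value. All cells were of 1 line and the assay measured no RNA, so neither the remaining Paupar level nor the identity of the cells by marker RNA could be read from these data.

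Pax6 carries a paired domain and a homeodomain, both of which bind DNA, and is needed for the endocrine cells of the pancreatic islet, where the glucagon gene Gcg is a known target. It also acts in the eye and the brain. Paupar is transcribed next to the Pax6 gene and is known as a nuclear RNA linked to Pax6 function in neural cells.

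The 4 summit lists differed in length, with 14311 summits in control KD replicate 1, 9983 in control KD replicate 2, 15611 in Paupar KD replicate 1 and 17942 in Paupar KD replicate 2. When each list was reduced to the 9983 summits of highest score, 1014 sites met the rule, and 841 of these were among the 2166. Without Paupar KD replicate 1, 6505 sites met it, without Paupar KD replicate 2 5569, and without control KD replicate 1 3942; without control KD replicate 2 the number was 2657. Read depth is unknown, so whether the lists differed in length through depth cannot be told apart from a difference between the groups.

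Different kinds of promoter occurred among the Paupar KD-only sites, and 6 are shown by sequence. Each line holds a RefSeq promoter window on GRCm38.p6 (mm10), from 250 bases before to 50 bases after an annotated start, read 5′ to 3′ on the gene's strand, with the bases of the Pax6 site in capitals (for G6pc2 98 of its 100 bases fall in the window). The first 4 were called higher after Paupar KD by the authors (false discovery rate, FDR, below 0.05). They belong to G6pc2, which encodes an islet glucose-6-phosphatase (chr2:69219699-69219998, + strand), Prlr, the prolactin receptor (chr15:10223656-10223955, + strand), Ppargc1a, a coactivator of mitochondrial genes (chr5:51567676-51567975, - strand), and Hepacam2, an adhesion protein of the immunoglobulin family (chr6:3494449-3494748, - strand). The last 2 had some of the highest control KD concentrations of all Paupar KD-only sites although no control summit was called: Eif2b4, a subunit of the translation factor eIF2B (chr5:31193090-31193389, - strand), and Ube2t, a ubiquitin-conjugating enzyme of DNA repair (chr1:134962315-134962614, + strand).
G6pc2: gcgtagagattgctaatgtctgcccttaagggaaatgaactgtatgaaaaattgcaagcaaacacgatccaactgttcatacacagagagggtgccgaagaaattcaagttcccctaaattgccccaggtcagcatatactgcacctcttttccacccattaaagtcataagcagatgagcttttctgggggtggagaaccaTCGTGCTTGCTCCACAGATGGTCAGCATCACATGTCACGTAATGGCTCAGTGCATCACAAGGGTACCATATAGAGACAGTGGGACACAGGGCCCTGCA
Prlr: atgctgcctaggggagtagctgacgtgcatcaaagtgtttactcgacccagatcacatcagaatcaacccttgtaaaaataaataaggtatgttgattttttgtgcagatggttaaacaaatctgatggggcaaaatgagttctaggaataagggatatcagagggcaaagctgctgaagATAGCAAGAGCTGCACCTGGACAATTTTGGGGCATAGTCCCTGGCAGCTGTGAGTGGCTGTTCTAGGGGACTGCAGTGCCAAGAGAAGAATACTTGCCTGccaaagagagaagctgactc
Ppargc1a: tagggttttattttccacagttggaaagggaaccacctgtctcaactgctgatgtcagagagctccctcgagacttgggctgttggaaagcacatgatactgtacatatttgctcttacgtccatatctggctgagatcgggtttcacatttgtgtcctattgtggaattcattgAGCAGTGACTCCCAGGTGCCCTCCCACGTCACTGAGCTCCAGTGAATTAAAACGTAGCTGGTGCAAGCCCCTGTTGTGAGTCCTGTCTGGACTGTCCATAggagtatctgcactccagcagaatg
Hepacam2: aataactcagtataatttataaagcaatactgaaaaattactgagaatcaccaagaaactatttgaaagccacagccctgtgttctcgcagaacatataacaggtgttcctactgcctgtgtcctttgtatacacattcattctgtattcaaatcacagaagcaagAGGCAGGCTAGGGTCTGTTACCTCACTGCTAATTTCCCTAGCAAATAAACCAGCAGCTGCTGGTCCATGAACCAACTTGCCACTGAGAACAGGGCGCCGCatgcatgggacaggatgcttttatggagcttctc
Eif2b4: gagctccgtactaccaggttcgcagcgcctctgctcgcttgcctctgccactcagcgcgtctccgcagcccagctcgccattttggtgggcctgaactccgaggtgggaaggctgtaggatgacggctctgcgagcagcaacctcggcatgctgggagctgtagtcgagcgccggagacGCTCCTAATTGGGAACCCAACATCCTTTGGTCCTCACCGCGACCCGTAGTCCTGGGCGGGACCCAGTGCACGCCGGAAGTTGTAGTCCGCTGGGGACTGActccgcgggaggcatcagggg
Ube2t: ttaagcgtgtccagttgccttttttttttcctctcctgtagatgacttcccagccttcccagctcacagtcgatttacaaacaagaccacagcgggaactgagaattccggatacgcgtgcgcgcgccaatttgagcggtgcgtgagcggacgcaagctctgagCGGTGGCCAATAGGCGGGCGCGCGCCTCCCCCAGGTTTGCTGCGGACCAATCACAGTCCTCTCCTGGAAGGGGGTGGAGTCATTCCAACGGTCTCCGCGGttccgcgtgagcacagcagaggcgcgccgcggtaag

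The windows of the higher sites were poorer in G and C than those of the strong, uncalled ones. The GC content was 47.3% for G6pc2, 45.7% for Prlr, 48.7% for Ppargc1a and 43% for Hepacam2, with 5, 2, 5 and 3 CpG dinucleotides. It was 64.7% for Eif2b4 and 59.7% for Ube2t, with 25 and 28 CpG dinucleotides. These windows were chosen after their values were seen, so the contrast describes the 6 promoters alone. In all, 106 Paupar KD-only sites lay whole within such a window, in 126 windows of 117 genes, and these windows had a median GC content of 57.7% and a median of 18 CpG dinucleotides. The medians over the 1417 windows that held a whole site of the table were the same, and over all 32851 windows they were 52.7% and 7.

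Motifs were searched as letters on both strands of the windows, and a match is a description, not a binding site. The paired-domain core CACGCNTGA was found in 1 of the 126 windows with a whole Paupar KD-only site (0.794%), that of Nudt22, against 1.2% of windows with any site of the table and 0.408% of all windows. The shorter core TTCACGC was also found in 1 window, that of Traf7, against 2.33% and 1.26%. Neither occurred in the 6 printed windows. The basic helix-loop-helix letters CAGATGG were in 6.35% of the 126 windows, against 4.66% of windows with any site and 5.3% of all windows. They lay inside the capitals of G6pc2, whose site is not whole in its window and so is not among the 126, at bases 217 to 223 of the window, next to the Maf letters TGCTGAC, matched on the other strand as GTCAGCA at bases 223 to 229, the matches sharing base 223. In the Prlr window CAGATGG and the forkhead letters TGTTTAC matched outside the capitals. The letters GTTGCCA, known from Rfx factors, were in 12 windows (9.52%), against 5.79% of windows with any site and 4.38% of all windows, and the cyclic AMP response element TGACGTCA was in 5 (3.97%), against 5.36% and 1.79%. The homeodomain palindrome TAATTA was in 4 windows (3.17%), against 3.18% and 5.29%. Other motifs had lower shares in the 126 windows than in both comparison sets. The forkhead letters were in 2.38%, against 3.46% and 3.65%, and the AP-1 letters TGANTCA were also in 2.38%, against 6.7% and 7.81%. The Maf letters were in 1.59%, against 3.53% and 4.67%, and the Gata letters AGATAAG in 0 windows, against 1.98% and 3.04%. With 126 windows, these shares rest on 0 to 12 windows each, and no test was run.

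Most Paupar KD-only sites had less Pax6 signal in control KD than after Paupar KD, and at 397 the control KD value was the higher one, 200 of these up to 1 kb from a gene start and 197 elsewhere. Over the 2166 sites, the median of the authors' concentrations was 3.63 in control KD (quartiles 2.70 and 4.58) and 4.83 in Paupar KD (quartiles 4.39 and 5.33). The median log2 change, Paupar KD minus control KD, was 1.04 (quartiles 0.20 and 2.18), against -0.03 over all 26244 sites and -0.29 over the sites with summits in all 4 libraries. The change was positive at 1763 sites (81.4%), negative at 18.3% and 0 at 6. A change above 1 occurred at 1100 sites (50.8%), against 19.6% of all sites. Of the 2163 sites within the authors' adjustment, 417 were called higher and 1 was called lower, the background of the same table being 3.39% of the 25234 sites tested for higher and 0.88% for lower. The rule used the same contrast, so nothing is read from that difference. With a library left out, the rule took more sites, and the median change was 0.50 without Paupar KD replicate 1 and 0.52 without control KD replicate 1. The share called higher, 19.3% with all libraries, was then 6.92% and 12.7%, and 11.2% without Paupar KD replicate 2; with lists of equal length it was 33.2%. At 1609 sites (74.3%) the control KD concentration was below 4.54, the 5th percentile of sites with summits in all 4 libraries, while at 100 it was at or above 5.99, their median.

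**Figure D1:**
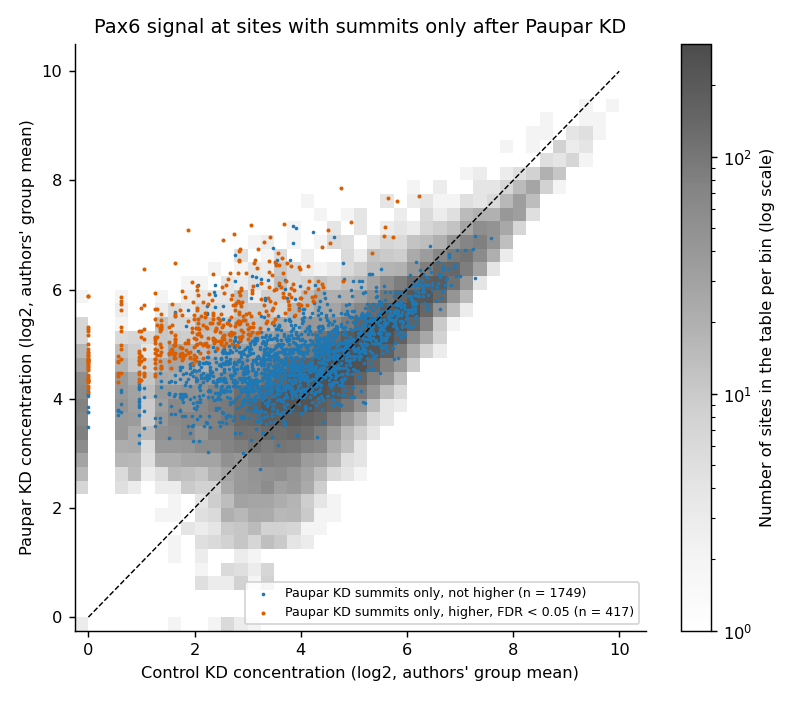
Authors' mean log2 concentration per site in control KD (x axis) and in Paupar KD (y axis); the grey grid counts all sites of the table and the points are the 2166 Paupar KD-only sites, with the 417 called higher in orange and the dashed line marking equal concentrations. Most points lie above the line, the orange ones far above it at low control KD values, and a tail of blue points follows the line to control KD concentrations above 7.

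The limit of 250 bp cut through a continuous range. The site assigned to Cpa5, a carboxypeptidase gene, whose farther Paupar KD summit lay 249.5 bp from the middle, had concentrations of 4.01 (control KD) and 5.84 (Paupar KD) (FDR 0.0327, authors' deposited table). Its nearest control KD summit lay 0.277 kb away. The Parva site, also at 249.5 bp, had 3.96 and 5.32 (FDR 0.16, authors' deposited table). Just outside, at 250.5 bp, a site 194 kb from Creb1 had 3.70 and 4.98 (FDR 0.269) and a site at the Fbxo15 promoter had 4.68 and 4.95 (FDR 0.869, authors' deposited table).

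By annotation, the Paupar KD-only sites were spread over the genome much like the table as a whole. Promoters, taken by the authors' annotation as up to 3 kb from a start, held 557 sites or 25.7% (exact 95% interval 23.9 to 27.6%), against 27.5% of all sites, 28.4% of sites with summits in all 4 libraries and 19.7% (15.9 to 24.1%) of sites with control KD summits only. Introns held 36.7%, distal intergenic sequence 31.3%, exons 3.19% and gene ends, the untranslated and downstream parts, 3.14%, against 36.8%, 28.9%, 3.46% and 3.39% of all sites. The median distance to the start of the assigned gene was 12.9 kb (quartiles 2.78 and 39.3), against 11.8 kb over all sites, and 43.4% lay upstream of it, against 42.2%. The intervals cover counting error only, and neighbouring sites are not independent. With the lists at equal length 19.1% lay in promoters.

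**Figure D2:**
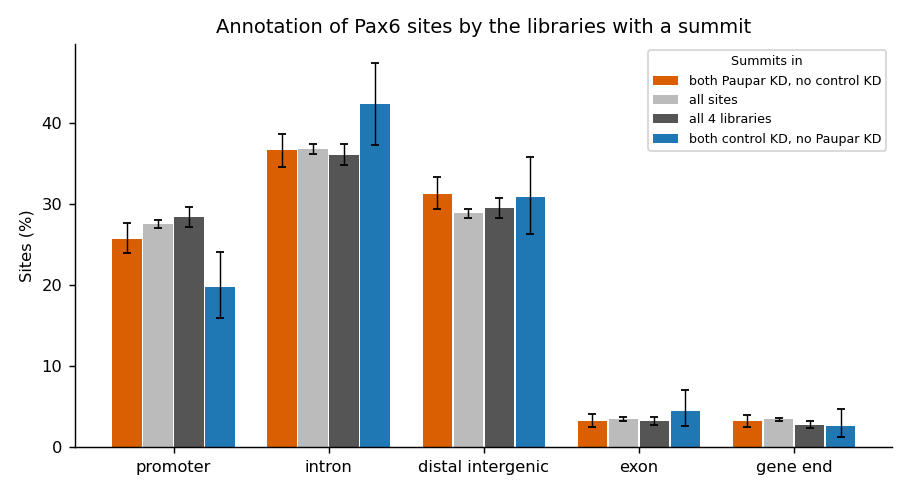
Share of sites in each annotation class (y axis, percent) for Paupar KD-only sites, all sites, sites with summits in all 4 libraries and sites with summits in control KD only; bars start at 0 and error bars are exact 95% intervals. Paupar KD-only sites held 25.7% promoters and 36.7% introns, and sites with control KD summits only held 19.7% promoters.

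The size of the change differed by place. At the 394 sites up to 1 kb from a start, the median concentration was 5.22 in control KD and 5.27 in Paupar KD, with a median change of -0.02 (quartiles -0.32 and 0.60), and 200 of them had the lower value after Paupar KD. Of the 394, 15 (3.81%) were called higher, against 47 of 5094 (0.923%) over all sites of that class. At the other 1772 sites, the medians were 3.42 and 4.74 and the median change was 1.31, and 402 (22.7%) were called higher. In the whole table, the share called higher in the other classes ran from 2.36% (gene ends) to 4.38% (distal intergenic). Those shares were also above the 0.923% near a start. Over all sites of the table, the change up to 1 kb from a start had a median of -0.30, so promoter-proximal sites stood lower there too. The median change of Paupar KD-only sites was 1.0 at 1 to 2 kb, 1.16 at 2 to 3 kb, 1.41 in first introns, 1.45 in later introns, 1.33 in distal intergenic sequence, 0.83 in exons and 0.72 at gene ends.

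**Figure D3:**
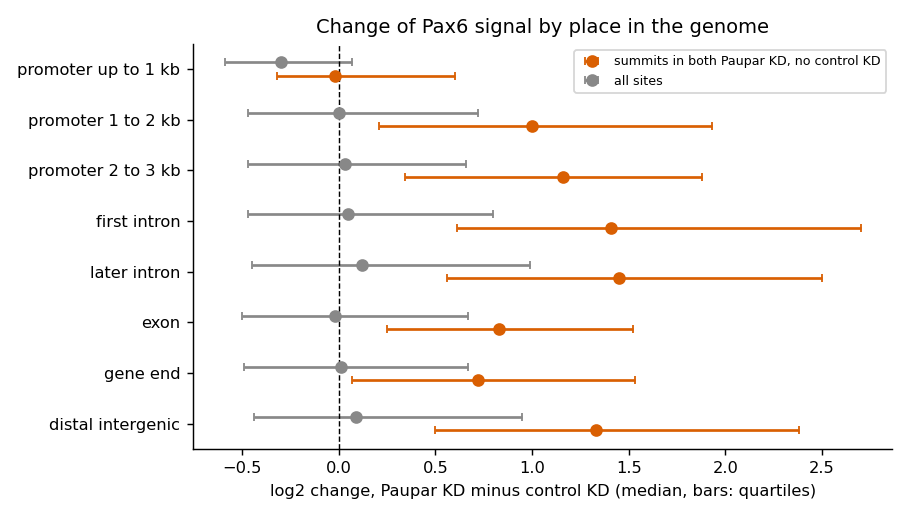
Median log2 change, Paupar KD minus control KD (x axis), by place in the genome (y axis) for Paupar KD-only sites in orange and all sites of the table in grey; bars span the quartiles over sites. The median of Paupar KD-only sites was -0.02 up to 1 kb from a start and at least 0.72 in every other class drawn, while that of all sites lay between -0.30 and 0.12.

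The change was larger farther from the gene start. Its median was 1.04 at 1 to 5 kb (294 sites), 1.20 at 5 to 10 kb, 1.23 at 10 to 50 kb (774 sites), 1.68 at 50 to 100 kb, 1.90 at 100 to 200 kb and 2.09 beyond 200 kb (67 sites, 25 of them called higher). Over all sites of the table the medians moved the same way but less far, from 0.02 at 1 to 5 kb to 0.31 beyond 200 kb. Of the 730 sites of the table beyond 200 kb, 51 were called higher, against 855 of all 26244. Mean signal also moved with place, and was therefore held within ranges. Among Paupar KD-only sites with a mean concentration above 5, the median change was -0.19 at 237 sites up to 1 kb from a start and 1.01 at 295 elsewhere. Between 4 and 5 it was 0.53 at 116 sites and 1.04 at 908, and up to 4 it was 1.08 at 41 sites and 1.65 at 569. In each range the Paupar KD-only sites near a start thus had the smaller median change, and no test was run. At the other sites of the table, the medians near a start and elsewhere were -0.43 and -0.27 above 5. They were -0.08 and -0.09 between 4 and 5, and 0.34 and 0.47 up to 4.

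Sites near a start also had weaker summits. The median summit score, the authors' −log10 q-value, was 6.87 in Paupar KD replicate 1 and 7.33 in replicate 2 at the 394 sites up to 1 kb from a start, and 9.86 and 8.84 at the other 1772. Of the 394, 270 had a control KD concentration of at least 4.54, the 5th percentile of sites with summits in all 4 libraries, against 287 of the 1772. Signal in control KD without a called summit was thus common at core promoters. The nearest control KD summit lay a median of 19 kb away from these 394 sites and 14.6 kb from the others.

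Over all 2166 sites the nearest control KD summit was 250 to 500 bp from the middle at 182 sites and 500 bp to 1 kb away at 92, together 12.7%. It lay over 10 kb away at 1251 sites (57.8%). The median change was 0.88 in the nearest class, 1.10 at 500 bp to 1 kb, 0.87 at 1 to 10 kb, 1.06 at 10 to 100 kb and 1.51 at the 303 sites over 100 kb from any control KD summit. Of these 303, 82 were called higher, as were 32 of the 182 in the nearest class. The share over all Paupar KD-only sites was 19.3%, and the same split was not made for the whole table.

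The 5 sites with the highest control KD concentration showed what a Paupar KD-only site with full control signal looked like. The Eif2b4 promoter site (chromosome 5, 31193111 to 31193210) had concentrations of 7.58 with control KD and 6.95 after Paupar KD (log2 change -0.63, FDR 0.176, authors' deposited table), with Paupar KD summit scores of 13.1 and 11.7 and the nearest control summit 12.9 kb away. The Ube2t promoter had 7.25 and 6.75 (FDR 0.333) and the promoter of Polr2j, a subunit of RNA polymerase II, had 7.09 and 6.73 (FDR 0.547, authors' deposited table). All 3 had a higher value in control KD than in Paupar KD. An intergenic site 9.18 kb upstream of Msx3, a homeobox gene, had 7.28 and 6.98 (FDR 0.682, authors' deposited table). The 1 Paupar KD-only site called lower lay 8.14 kb upstream of Sox12, which encodes an HMG-box factor (chromosome 2, 152406206 to 152406305), and fell from 7.28 to 6.22 (log2 change -1.07, FDR 0.0128, authors' deposited table), with summit scores of 11.7 and 20.4 after Paupar KD. Of the 100 sites at or above the control median of sites with summits in all 4 libraries, 80 lay up to 1 kb from a start.

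The strongest signals after Paupar KD lay at genes of varied function. The highest, 1.32 kb from the start of Icos, which encodes a T-cell co-stimulatory receptor (chromosome 1, 60979248 to 60979347), had concentrations of 4.76 and 7.86 (log2 change 3.10, FDR 0.00547, authors' deposited table) and summit scores of 280 and 149. The nearest control KD summit was 202 kb away. Next came Jazf1, a zinc-finger gene, with 6.23 and 7.72 (FDR 0.000443), and Inpp5f, a phosphoinositide phosphatase gene, with 5.65 and 7.67 (FDR 1.25e-06, authors' deposited table). Both of these sites had a control KD summit outside the window but within 1 kb, at 0.308 and 0.916 kb. The site 3.44 kb upstream of Spen, a corepressor gene, had 5.81 and 7.62 (FDR 1.26e-06), and the promoter of Alms1, a centrosome and cilium protein, had 4.95 and 7.24 (FDR 0.0296, authors' deposited table). A site 20.5 kb from Idh1, the cytosolic isocitrate dehydrogenase, had 3.07 and 7.18 (FDR 0.0495) and one near Traf3ip1, an intraflagellar transport protein, had 5.58 and 7.15 (FDR 0.00232, authors' deposited table). The site assigned to Btg3, an antiproliferative gene, 66.2 kb upstream, had 3.91 and 7.12 but was not called (FDR 0.0597, authors' deposited table).

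**Figure D4:**
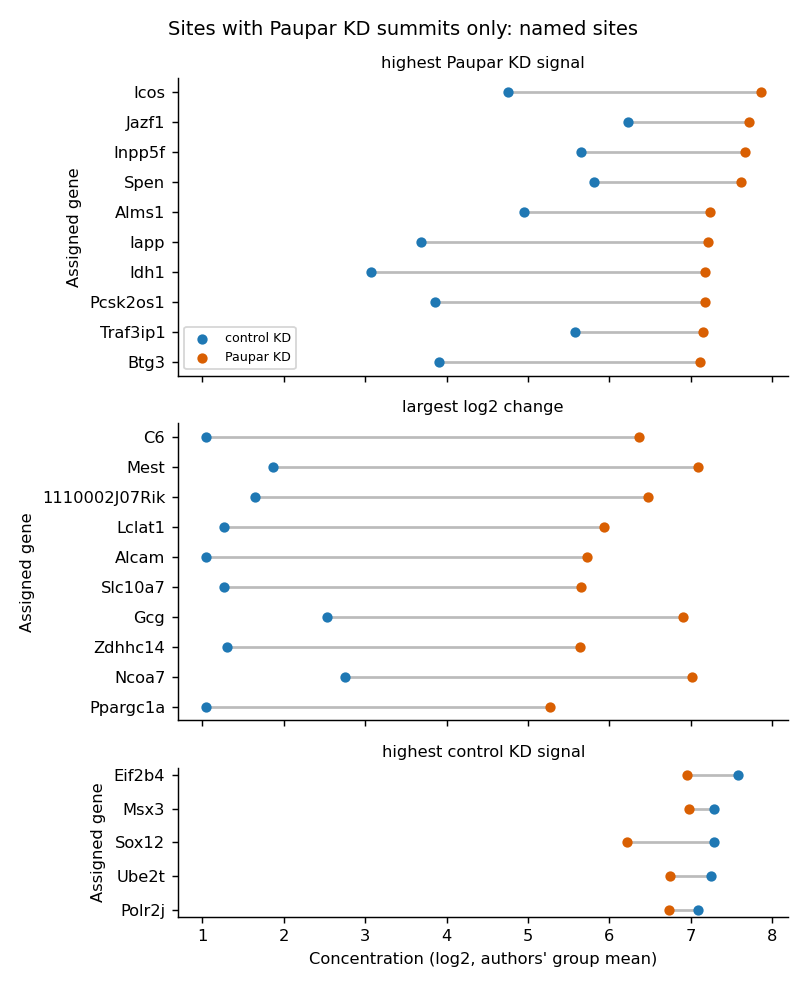
Authors' mean log2 concentration (x axis) in control KD (blue) and Paupar KD (orange) at single Paupar KD-only sites named by their assigned gene, for the 10 highest in Paupar KD, the 10 largest log2 changes with a control KD concentration above 1 and the 5 highest in control KD. Orange lies to the right in the first and second panels, from 1.49 at Jazf1 to 5.32 at C6 in log2 change, and to the left at all 5 sites of the third.

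The 10 largest changes with a control KD concentration above 1 started from control KD values of 1.04 to 2.75. The largest was at an exon of C6, a complement component gene, 32.3 kb from its start, with summit scores of 76.4 and 46.5 and concentrations of 1.04 and 6.37 (log2 change 5.32, FDR 2.27e-07, authors' deposited table). The site 14.2 kb upstream of Mest, an imprinted gene expressed from the paternal allele, had 1.87 and 7.09 (log2 change 5.22, FDR 0.0114, authors' deposited table), with summit scores of 179 and 17.3. The score was higher in replicate 1 at all 10 sites, and far higher at Mest, at 1110002J07Rik (120 and 19.2) and at Alcam (50.9 and 10.9). A site near Lclat1, a lysophospholipid acyltransferase gene, had 1.26 and 5.94 (FDR 4.16e-06), and an intronic site assigned to Alcam, an adhesion molecule gene, had 1.04 and 5.72 (FDR 7.66e-05, authors' deposited table). A first-intron site assigned to Zdhhc14, a palmitoyltransferase gene, had 1.30 and 5.64 (FDR 6.33e-05) and one assigned to Ncoa7, a nuclear receptor coactivator gene, had 2.75 and 7.01 (FDR 0.00666, authors' deposited table). The printed Ppargc1a promoter, with summit scores of 24.2 and 13.9, had 1.04 and 5.27 (log2 change 4.23, FDR 0.001, authors' deposited table).

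Over the whole table, 522 of the 26244 sites had a control KD concentration listed at or below 0. Paupar KD-only sites had a like share, 43 of 2166, and no fold is given for them. The highest of these in Paupar KD were an intron site of Lpp, which encodes a focal adhesion protein, and a site 167 kb from Maf, a bZIP factor gene, each with -0.01 and 5.89 (FDR 6.06e-05 and 0.000101, authors' deposited table). The printed Hepacam2 promoter had -0.01 and 5.31 (FDR 0.000821), with summit scores of 13.3 and 26.7, and a site near Ica1, an islet autoantigen gene, had -0.01 and 5.01 (FDR 0.00464, authors' deposited table). The 10 strongest sites of this kind were all called higher, but they were picked by their Paupar KD value. Sites of this kind with less Paupar KD signal were not all called. For example, a site assigned to Arid1b had -0.01 and 3.76 (FDR 0.106, authors' deposited table).

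The summits behind the sites were mostly of middling strength in both Paupar KD libraries. The median score was 9.19 in replicate 1 (quartiles 6.01 and 15.6, range 2.0 to 280), against 10.2 over its whole list, and 8.83 in replicate 2 (quartiles 5.88 and 12.9, range 2.04 to 207), against 9.57. Among the 1000 strongest summits of each list, 90 Paupar KD-only sites had theirs in replicate 1 (4.16%) and 17 in replicate 2 (0.785%). The score was higher in replicate 1 at 1219 sites (56.3%). The summits of both libraries lay a median of 60.5 bp apart, and at 67.7% of the sites within 100 bp of each other. Across the 2166 sites, which all come from the same pair of libraries, Spearman's rho between the scores was 0.49, given as a description.

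**Figure D5:**
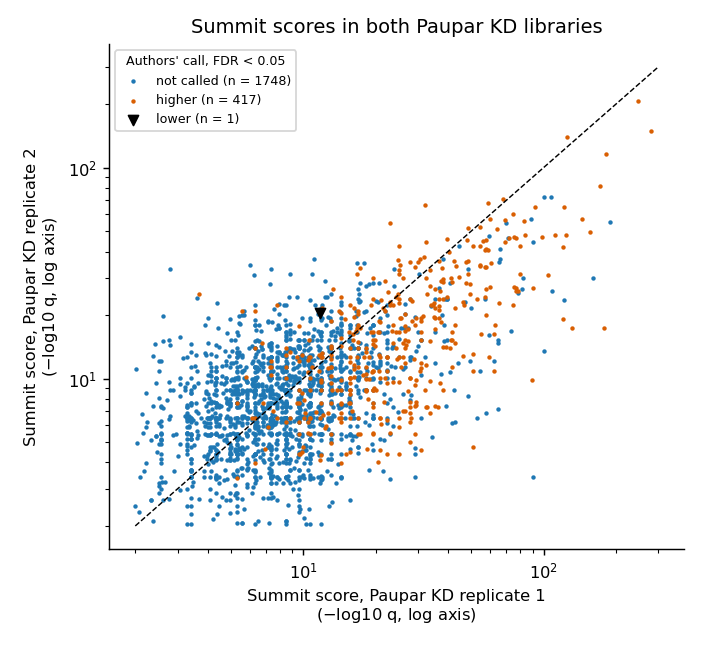
Summit score (−log10 q, log axes) of each of the 2166 Paupar KD-only sites in Paupar KD replicate 1 (x axis) and replicate 2 (y axis), with sites called higher in orange, the 1 site called lower as a black triangle and the dashed line marking equal scores. The orange points reach the highest scores in both libraries, and 56.3% of all points have the higher score in replicate 1.

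Ranked by the weaker of its summits, the leading site lay 37.2 kb from Barhl2, a neural homeobox gene (chromosome 5, 106420834 to 106420933). Its scores of 247 and 207 ranked 52 and 88 in the lists, and its concentrations were 5.74 and 6.96 (log2 change 1.23, FDR 0.0128, authors' deposited table). A control KD summit lay 0.328 kb away, just outside the window. The same held for Jazf1, Inpp5f, Adamts18 and 3300005D01Rik, each with a control KD summit within 1 kb, so that 5 of the 10 leading sites lay beside a control summit. At the other 5, near Icos, Gcg, Map2, Btg3 and Adam7, the nearest control summit was 1.32 kb away or farther. The site 154 kb from Adam7 had concentrations of 3.31 and 6.87 (FDR 0.0489, authors' deposited table).

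A large change was not always called. Of the sites with a log2 change above 2, 386 were called higher, with median scores of 21.7 and 12.9 in the Paupar KD libraries, and 210 were not, with 10.7 and 7.47. Some uncalled sites had strong summits. An intron site of Map2, a neuronal microtubule protein gene (chromosome 1, 66221666 to 66221765), had scores of 99.9 and 72.5 and concentrations of 4.24 and 7.05 (FDR 0.214, authors' deposited table). A site 186 kb from Creb1, the cyclic AMP response factor gene, had scores of 122 and 23.5 and concentrations of 3.47 and 6.77 (FDR 0.322, authors' deposited table). Since the table holds no value per library, the spread between libraries at these sites cannot be read.

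Most genes had a single Paupar KD-only site and other Pax6 sites with control KD summits. Of the 1828 genes, 1575 had 1 such site, 197 had 2 and 56 had 3 or more. At 1175 genes (64.3%) another listed site had a control KD summit, at 653 no listed site had one, and at 441 the Paupar KD-only site was the sole listed site of the gene. The same counts were not made over all genes of the table, so nothing is read from them. Tox3, an HMG-box gene, and Zfp608, a zinc-finger gene, had the most, with 7 each of 35 and 27 listed sites, 2 of them called higher at each gene. At Tox3 the control KD concentrations ranged from 2.13 to 5.30 and those of Paupar KD from 3.95 to 5.74 in the authors' deposited table, over 750 kb. At Zfp608 they ranged from 0.61 to 4.60 and from 3.99 to 5.32 in the authors' deposited table. Dusp10, a phosphatase gene of stress-activated kinases, had 6 of 33 sites with 1 called higher, the one 79.2 kb upstream with 2.60 and 6.08 (FDR 3.09e-05, authors' deposited table).

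Genes with several such sites did not all share a direction of signal. Gse1 had 5 of 34 sites, all annotated to a first intron, with changes from -0.96 to -0.13 and none called in the authors' deposited table. Ptprt, a receptor tyrosine phosphatase gene, had 4 of 15, all intronic, with changes from 2.04 to 3.48 and 2 called higher in the authors' deposited table. Pcsk2os1, an antisense transcript of the convertase gene Pcsk2, had 5 of 14, none called. Of these, the one with the highest signal (chromosome 2, 143419883 to 143419982), 126 kb from the start, had summit scores of 189 and 55 and concentrations of 3.86 and 7.17 (FDR 0.0944, authors' deposited table). Dst, a cytoskeletal linker gene, had 5 of 23 with 1 called higher, and Map2, Cdh13, a cadherin gene, and Slc38a4, an amino acid transporter gene, had 4 each with 1 called higher.

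At Prlr, 3 of the 4 listed sites were Paupar KD-only sites, all 3 were called higher, and no listed site had a control KD summit. The promoter site, whose window is printed above, had summit scores of 20.6 and 18.7 and concentrations of 3.11 and 5.31 (log2 change 2.20, FDR 0.0303, authors' deposited table). The sites 101 kb upstream and 32.2 kb inside the gene had 2.75 and 5.21 (FDR 0.026) and 3.77 and 5.65 (FDR 0.0323, authors' deposited table). The nearest control KD summits lay 346, 198 and 140 kb from the 3 sites, in genome order. Prlr was singled out after its values were seen.

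Alpha-cell identity genes held 11 Paupar KD-only sites among 72 listed sites (15.3%, against 8.25% of all sites), and 5 of the 11 were called higher, as were 9 of the 72. Over all sites the background was 19.3% of Paupar KD-only sites and 3.39% of tested sites called higher, for this and the next lists. Counts for this and the next lists are descriptions, since the lists were drawn up with earlier results known. Gcg, the glucagon gene, had 2 such sites of 5, the upstream one at -1.43 kb with summit scores of 92.3 and 65.3 and the other, 0.114 kb from an annotated start, with 15.7 and 10.1. Both were called higher in the authors' deposited table. An intron site assigned to Higd1a, a mitochondrial hypoxia-response gene, had 4.16 and 6.16 (FDR 0.00379, authors' deposited table). A control KD summit lay 0.322 kb from this site, just outside the window. The Dpp10 promoter had 5.44 and 5.41 (FDR 0.989) and a site near Ttr, the transthyretin gene, had 2.97 and 4.13 (FDR 0.558, authors' deposited table). An intron site of Dpp10, 12.3 kb from its start, had 1.58 and 5.35 and was called higher (FDR 0.000542, authors' deposited table).

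Beta-cell identity genes held 4 among 36 sites (11.1%), 2 of them called higher. The G6pc2 promoter had summit scores of 25.2 and 34.5, and its concentrations were 2.34 and 5.54 (log2 change 3.20, FDR 0.000452, authors' deposited table). Iapp, the amylin gene, had a site with scores of 144 and 56.9 and no control KD summit within 162 kb. Sites of Slc30a8, a granule zinc transporter gene, and Npy, a neuropeptide gene, had 4.07 and 5.50 (FDR 0.147) and 2.43 and 4.11 (FDR 0.318, authors' deposited table) and were not called.

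Islet transcription factor genes held 17 among 198 sites (8.59%), close to the share of all sites, and 3 were called higher. Rfx3, a winged-helix factor of ciliogenesis and islet development, had scores of 44.5 and 30.4 at an intron site 261 kb from any control KD summit. The St18 promoter site, with a control KD summit 0.757 kb away, had 2.39 and 5.68 but was not called (FDR 0.132, authors' deposited table). Prox1, a homeobox gene of pancreas and lens, had 3.17 and 4.64 (FDR 0.324) and Myt1l, a zinc-finger gene, had 4.76 and 5.57 (FDR 0.406, authors' deposited table). The Prox1 site lay 0.311 kb from a control KD summit. Pax6 itself had 0 such sites among 9, and Paupar had 1 among 4, with 4.22 and 4.36 (FDR 0.949, authors' deposited table). Delta-cell and other hormone genes had 0 among 11 sites.

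Genes of hormone processing and granules held 11 among 110 sites (10%), with 2 called higher, at Rab3b, a small GTPase of exocytosis (2.13 and 5.15, FDR 0.00556), and Snap25, a SNARE protein (2.26 and 5.74, FDR 0.000173, authors' deposited table). Unc13b, a vesicle priming factor, had 3.18 and 5.07 (FDR 0.0821) and Ptprn, a granule membrane phosphatase homologue, had 4.83 and 5.07 (FDR 0.872, authors' deposited table). The Unc13b site lay 0.296 kb from a control KD summit. Ion channel genes held 7 among 114 sites (6.14%), with 1 called higher, at the sodium channel gene Scn3a (1.26 and 5.02, FDR 0.00407, authors' deposited table). An intron site of Abcc8, the sulphonylurea receptor, had 4.52 and 5.16 (FDR 0.585, authors' deposited table). Receptor genes held 7 among 49 sites (14.3%), with 5 called higher, 3 of which were those of Prlr, a gene singled out after its values were seen; of the 49 sites, 6 were called higher. Adra2a, an adrenergic receptor, had 4.15 and 5.26 (FDR 0.266, authors' deposited table).

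Cyclic AMP signalling genes held 12 among 159 sites (7.55%), with 3 called higher, all at the phosphodiesterase genes Pde10a and Pde4d. These were Pde10a sites with 2.79 and 5.76 (FDR 0.00045) and 1.26 and 4.42 (FDR 0.0483), and a Pde4d site with 2.07 and 5.46 (FDR 0.00128, authors' deposited table). Other sites of both genes were not called, among them a Pde4d site with 5.15 and 4.99 (FDR 0.922) and a Pde10a site with 4.34 and 5.12 (FDR 0.507, authors' deposited table). Adcy9, an adenylyl cyclase gene, had 4.18 and 5.50 (FDR 0.143, authors' deposited table), with a control KD summit 0.271 kb away. Axon guidance and adhesion genes held 19 among 153 sites (12.4%), with 7 called higher. Dcc, a netrin receptor, had 3.41 and 6.53 (FDR 2.09e-07), Unc5c, another netrin receptor, had 2.15 and 5.77 (FDR 0.000101), and Nrp2, a semaphorin receptor, had 5.57 and 6.98 (FDR 0.0187, authors' deposited table). The Nrp2 site lay 0.265 kb from a control KD summit.

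Neural transcription factor genes held 6 among 46 sites (13%), 1 of them called higher, at Barhl2, and lens and eye genes held 4 among 38 (10.5%), 1 called higher, at Maf. The Maf site was held by another list too, so the lists share sites and their counts are not separate. Pax2, a paired-box gene of the eye and kidney, had 3.04 and 5.03 (FDR 0.0713, authors' deposited table). Lists for cells other than the labelled ones also held such sites. Exocrine pancreas genes had 2 among 28 (7.14%), 1 of them called higher. Hepatocyte genes had 2 among 7 (28.6%), at Apoa2 and Ttr and neither called, and the Ttr site was given above with the alpha-cell genes. Neuron genes had 6 among 44 (13.6%) with 2 called higher, and 4 of the 6 were sites of Map2. Immune cell genes had 3 among 8 (37.5%) with 1 called higher, at Icos. A share above the 8.25% of all sites was thus not particular to the alpha-cell list. ChIP signal near a gene gives no level of its RNA, and these lists served only to group assigned genes.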

How the data were processed

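Pax6 ChIP-seq was deposited for 2 control KD and 2 Paupar KD libraries of alphaTC1 cells, beside 2 input libraries per group, which were not used here. The tools, per the submitters' processing notes, were Bowtie2 and MACS2, then DiffBind and ChIPseeker (versions not stated), on build mm10. How DiffBind normalized and tested is not stated in any source used here. Read depth is unknown, and signals therefore carry no counting interval. The authors deposited concentrations and a fold, read as log2 from their values; the sign of the fold was turned, so that positive is higher after Paupar KD, and 0 sites departed by more than 0.01 from the difference of the concentrations. The authors deposited a p-value and an FDR, used as they stand; 1010 sites lay outside their adjustment and 25234 inside it. The summit score was deposited by the authors and was read as −log10 of the q-value, its lowest value being 2. Distances to the assigned gene start are the authors' values, in the table as deposited. Symbols that had become dates (51) were looked up again by gene ID in the RefSeq GRCm38.p6 table, which held 99.97% of the sites' IDs. The summit list filed under control KD replicate 2 is named with a different number, and the sample record decided its group.

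Summits were matched to a site within 250 bp of its middle, and the matching was tested on simulated data. No test was run on the sites, since the table holds group means and the sites were chosen by the same libraries. Shares carry exact (Clopper-Pearson) 95% intervals. Sites were named by a rule: the 10 highest in Paupar KD, the 10 largest changes with a control KD concentration above 1, the sites of the 10 genes with most such sites, the 5 highest in control KD, every site called lower, the 10 with the best rank of the weaker summit, up to 4 per gene list, and the 2 nearest to each side of the window limit. Prlr, both Gcg sites, the Paupar site, the sites at the floor and the printed promoters were chosen after their values were seen. The rule, the 15 gene lists and the 10 motifs were chosen with earlier results of these data known. Some sites that the rule names are not reported here. Promoter sequences are RefSeq windows of 300 bases on GRCm38.p6. Python 3.11.15, numpy 2.4.6, pandas 2.3.3, scipy 1.17.1 and matplotlib 3.10.9 were used. Alternatives were windows of 100 and 500 bp, a score of at least 5, lists of equal length, other FDR limits, subsets of sites, each library left out, and no control KD summit within 1 kb, which was added after seeing the data.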

Additional observations from a re-analysis of the deposited data

How the results depend on the processing

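The number of Paupar KD-only sites was 1014 with lists of equal length and 2657 to 6505 when 1 library was left out, against 2166. The median log2 change was 0.94 with control KD concentrations above 1, 1.56 with lists of equal length, 1.17 with scores of at least 5 and 0.50 to 1.28 when 1 library was left out, against 1.04. The share called higher was 9.74% at an FDR below 0.01, 24.9% at an FDR below 0.1, 33.2% with lists of equal length, 23% with scores of at least 5, 21.3% with a window of 100 bp and 6.92 to 16% when 1 library was left out, against 19.3%. Both values moved by over 1.5 times without Paupar KD replicate 1 (0.50 and 6.92%) and without control KD replicate 1 (0.52 and 12.7%), and the share also without Paupar KD replicate 2 (11.2%). The share in promoters was 19.1% with lists of equal length, 23.6% with scores of at least 5, 18.2% when only sites up to 1 kb from a start were counted and 21.5 to 33.4% when 1 library was left out, against 25.7%. The median distance was 15.8 kb with lists of equal length, 22.8 kb outside promoters, 14.3 kb with a window of 100 bp and 9.39 to 14.8 kb when 1 library was left out, against 12.9 kb. The cause of these differences was not tested; an omitted library loosens the rule, so more sites meet it. Requiring no control KD summit within 1 kb, chosen after seeing the data, left 1892 sites, with a median change of 1.05 and 19.4% called higher. No paired analysis was possible because the results come from no test and the table holds group means. With 2 libraries a group and unknown depth, a missing summit does not show that Pax6 was absent.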

Other observations

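Paupar KD-only sites were found on every chromosome with at least 50 listed sites, from 6.13% of the sites on chromosome 17 and 6.99% on chromosome 4 to 9.68% on chromosome 18 and 9.77% on chromosome 16. Few lay close together: 10 (0.462%) had another such site within 1 kb, 145 (6.69%) within 10 kb and 510 (23.5%) within 50 kb. At 463 genes every listed site was of this kind, a count not made for other groups of sites. The 15 sites called higher up to 1 kb from a start had median concentrations of 2.34 and 5.27, with 3.36 as their median log2 change, close to the 2.21, 5.30 and 3.12 of the 402 called higher elsewhere. Their median summit scores were 19.1 and 16.3, against 23 and 13.9 elsewhere.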
